A study of Mus musculus with 8 samples.

Results

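The genes described are those by which cells take up, store and export iron, in the small intestine of mouse fetuses with and without the zinc finger transcription factor Plagl2. The set holds 10 genes named by function (Slc40a1, Slc11a2, Cybrd1, Heph, Tfrc, Fth1, Ftl1, Hamp, Trf and Meltf), and a probe set counted as a member when the platform annotation gave it exactly 1 gene symbol and that symbol was in the set. This found 20 probe sets of 8 genes, among 34958 probe sets with 1 symbol and 45101 in all. Ftl1 and Trf have no probe set of their own, because the 3 probe sets of Ftl1 and the 1 of Trf are each annotated to another gene as well, so neither gene is given a value here. Of the 20 probe sets, 17 were tested across the array and 3 are array control probe sets for Tfrc, which were compared separately.

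RNA of whole small intestine at 18.5 days post coitum was hybridised to Affymetrix MOE430 2.0 arrays, 1 array per sample, from 4 Plagl2 knockout and 4 wild-type samples. The sources used here do not give the knockout allele, the strain or the litters, and nothing in the labels says that the samples of a group were separate litters, so p-values measure only the spread between these samples. The extraction text speaks of wild-type tissue for all 8 samples, while titles and source names give 4 knockouts.

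Dietary iron enters the enterocyte at its apical face as ferrous iron through the divalent metal transporter encoded by Slc11a2, after reduction by ferrireductases such as the one encoded by Cybrd1. It leaves across the basolateral membrane through ferroportin, the product of Slc40a1 and the only known iron exporter of vertebrates, helped by the copper oxidase hephaestin (Heph), and is carried in blood by transferrin (Trf) to cells that take it up through the transferrin receptor (Tfrc). Iron inside the cell is held by ferritin, built of heavy (Fth1) and light (Ftl1) chains, and the liver hormone hepcidin (Hamp) makes ferroportin be degraded. Melanotransferrin (Meltf) is a membrane-anchored relative of transferrin. Iron regulatory proteins bind hairpins in several of these mRNAs, and in this way change transferrin receptor mRNA stability and ferritin translation, so that a change in protein need not appear as a change in mRNA.

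The labels were checked by Plagl2 itself: probe set 1417517_at gave signals of 697 to 824 in wild-type and 3 to 11 in knockout arrays. Xist gave 1828 and 1410 in knockout replicates 2 and 3 and at most 47 in the other 6 arrays, and the Y-linked Eif2s3y gave 7 and 3 in those knockouts and at least 562 elsewhere, so knockout replicates 2 and 3 were female by these signals and sex was not balanced. As a sign of RNA quality, 3' and 5' control probe sets of actin and Gapdh were compared, and the mean log2 ratio of 3' over 5' signal was 0.0639 higher in knockouts (exact permutation p = 0.0286, two-sided, the smallest that 4 against 4 arrays allow). The ratio was -0.055 to 0.0066 in wild-type and 0.017 to 0.098 in knockout arrays, without overlap. Adjustment for it therefore also takes away part of the genotype difference. A call lost after that adjustment, for any gene below, cannot tell the ratio from genotype. The 10 enterocyte markers were all tested, 2 being higher and 1 lower, with summed signals of 37824 to 45921 in wild-type and 40700 to 51742 in knockout arrays. Wild-type replicate 3 had the lowest enterocyte sum and, at 23867, the highest smooth muscle and fibroblast sum of the wild-types. These are bulk samples, in which fewer cells of a type and less RNA per cell cannot be told apart.

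Of the 17 tested probe sets of iron genes, 5 were lower in the knockout (29.4%), 0 were higher and 12 were not called at a limma adjusted p under 0.05, where 12.0% of all 27022 tested probe sets were called, 6.70% as lower and 5.28% as higher. Taking 1 probe set per gene, 15.1% of 12838 genes were called, 8.50% as lower and 6.60% as higher. By that rule 2 of the 8 member genes tested were lower, Meltf and Slc40a1. Counting any probe set, the calls lay in 3 genes: Meltf, Slc40a1 and Tfrc. The median log2 fold change of the 17 was -0.17, against 0.03 for all probe sets tested. The groups did not overlap in 4 of the 17 (23.5%), against 17.0% of all tested probe sets, of which 9.26% had the knockouts below the wild-types. Each log2 fold change compares knockout with wild-type as a difference of log2(signal + 16), which makes it smaller than ratios of signal where a group is dim, and errors are standard errors of the limma fit unless said to be SDs.

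**Figure D1:**
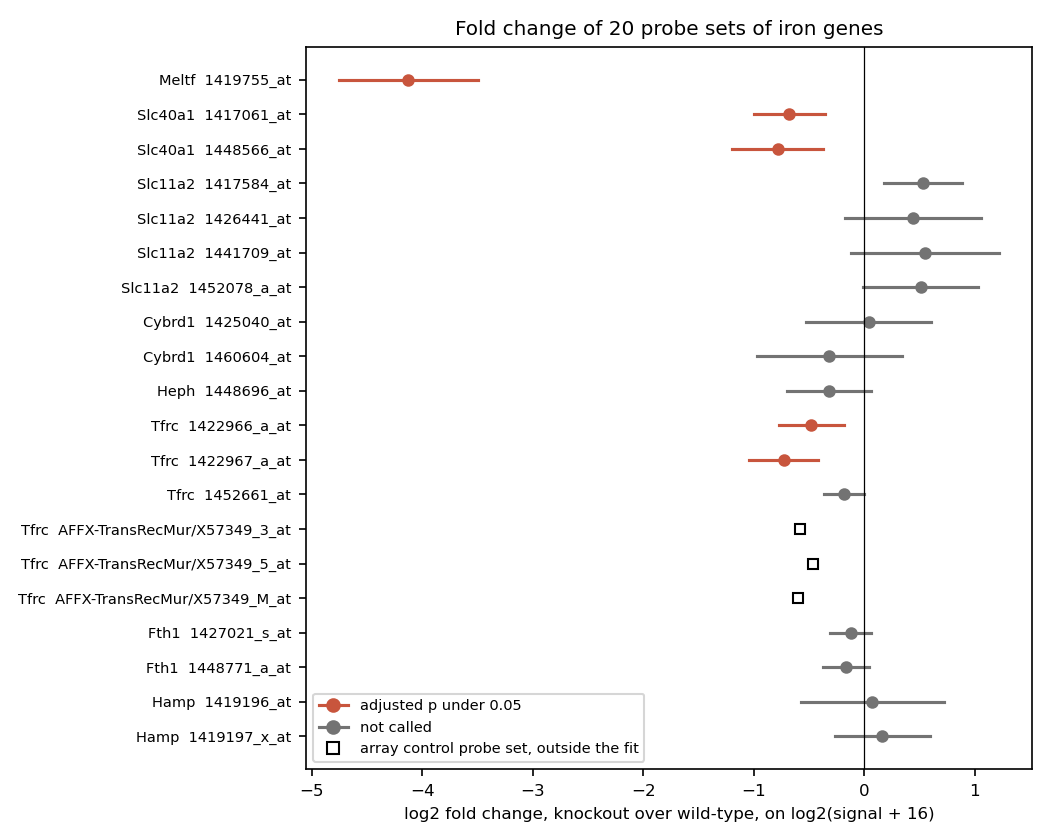
Log2 fold change (x axis, knockout over wild-type) of the 20 probe sets of iron genes, with 95% confidence intervals of the limma fit as lines. Red points passed the adjusted threshold, grey points did not, and open squares are the Tfrc control probe sets, which have no fitted interval. Meltf lies at -4.13, and all other points lie between -0.79 and 0.55.

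Meltf lost nearly all its signal in the knockout. Its 1 probe set, 1419755_at, gave 5113, 5578, 3403 and 5042 in wild-type replicates 1 to 4 and 137, 447, 333 and 200 in knockout replicates 1 to 4. Every knockout array lay far below the lowest wild-type array, and the mean fell from 4784 ± 951 to 279 ± 138 (SD, n = 4), which is 5.84% of the wild-type level, or a 17.1-fold difference in signal. The log2 fold change was -4.13 ± 0.29 (SE, limma adjusted p = 3.08e-06), the 13th lowest of the 27022 probe sets tested. Without any 1 array it stayed between -4.38 and -3.85, and it was -4.01 after adjustment for the 3' to 5' ratio and -4.70 among the 6 arrays lacking Xist signal. Signal remained in the knockouts, where knockout replicate 2 gave 447 and replicate 1 gave 137, a wider relative spread than among the wild-types.

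Meltf lies at chr16:31878629-31899020 in GRCm38.p6. RefSeq promoter windows, of 250 bases before and 50 after a gene's start, were matched for 6 of the 10 genes (Meltf, Tfrc, Fth1, Cybrd1, Hamp and Ftl1). The windows were searched on both strands of the 250 bases before the start for GAGGC or GGGGC followed, after any 7 bases, by GGG, forms of the core and G cluster that PLAG family factors bind. Slc40a1, Slc11a2, Heph and Trf were not searched. At least 1 of these forms was in 10.6% of all 32851 windows. This share is per window and not per gene, and some genes, such as Tfrc and Fth1, have more than 1 window. By gene, 1960 tested genes had a match and 8396 did not. Matches were found before Meltf, Cybrd1 and Fth1, and are shown because Meltf is the gene with the most change while the other 2 were not called. Capitals mark the match, and each stretch of 30 bases is written on the sense strand, 5′ to 3′, from RefSeq in GRCm38.p6.
Meltf, chr16:31878735-31878764: ggcagagGAGGCGTCAGCAGGGgatgccag
Cybrd1, chr2:71117950-71117979: cgcggcaCCCCCGGGAGGCCCCacagcctg
Cybrd1, chr2:71117976-71118005: cctgttaCCCTAAGAAAGCCCCtccccacg
Fth1, chr19:9982527-9982556: tcagagcCCCTTGCGTCGCCTCacactcac
The Meltf match begins 68 bases before the start its window was built on and reads on the sense strand, and it lies inside the span of the gene, which the RefSeq table begins at base 31878629. Those of Cybrd1, from 97 and 71 bases before the start, read on the other strand, as does that of Fth1, from 112 bases before a start that lies within the gene's span (chr19:9980600-9985111). A match is a description of the letters only. Over the whole array, 9.34% of 1960 tested genes with a match were called lower and 8.42% higher, against 8.18% and 6.18% of 8396 tested genes without one.

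The 3 genes whose signals ran most like that of Meltf over the 8 arrays were Nr1h4 (Pearson r = 0.996), Elovl1 (0.994) and Dpp7 (0.993). These values describe 8 arrays that fall into the 2 genotypes, so every gene that differs between genotypes shares that step. Nr1h4, which encodes the bile acid receptor FXR, fell by 1.09 on the log2 scale (limma adjusted p = 3.38e-05), and Dpp7, a dipeptidyl peptidase gene, fell by 2.79 by the probe set compared (limma adjusted p = 2.79e-07), 2 of its 3 tested probe sets being called and the third having -0.33.

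Ferroportin mRNA was lower in the knockout by both of its probe sets. For 1417061_at, wild-type replicates 1 to 4 gave 4466, 4589, 3326 and 4502, and knockout replicates 1 to 4 gave 1942, 2906, 3106 and 2644. All 4 knockouts lay below all 4 wild-types. The mean of this probe set fell from 4221 ± 599 to 2650 ± 508 (SD, n = 4), 62.8% of wild-type, with a log2 fold change of -0.68 ± 0.15 (limma adjusted p = 0.00989). Probe set 1448566_at gave 3201, 3525, 2230 and 3421 in wild-type and 1262, 2057, 2325 and 1587 in knockout arrays. Here the groups overlapped, because knockout replicate 3 lay above wild-type replicate 3, and the log2 fold change was -0.79 ± 0.19 (limma adjusted p = 0.0178). The second probe set lost its call when wild-type replicate 1, 2 or 4 was left out (adjusted p = 0.0566 to 0.0634), while the first kept it whichever array was left out (0.00278 to 0.0389). After adjustment for the 3' to 5' ratio neither was called (log2 fold changes -0.59 and -0.76, adjusted p = 0.196 and 0.205). Among the 6 arrays lacking Xist signal both were called (-0.88 and -1.10, adjusted p = 0.00892 and 0.00563).

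Macrophages also hold ferroportin, and part of the macrophage list moved with genotype. The summed signal of its 11 markers was 4296 to 5950 in wild-type and 1860 to 2415 in knockout arrays. Most of it came from Csf1r in wild-type arrays (2874 to 4306) but not in knockout arrays (628 to 858). Of 10 markers tested, Csf1r and Adgre1 were lower and 0 were higher, and without Csf1r the sum was 1422 to 1708 against 1197 to 1557. Its part in the ferroportin result was not tested.

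Hephaestin, the oxidase that works beside ferroportin, was not called. Heph (1448696_at) gave 2415, 2493, 1656 and 2536 in wild-type and 1716, 1695, 2488 and 1411 in knockout arrays. Knockout replicate 3 lay among the high wild-types and wild-type replicate 3 among the low knockouts. The log2 fold change was -0.32 (95% confidence interval -0.70 to 0.06, limma adjusted p = 0.272). This is an interval that holds the -0.68 of ferroportin by 1417061_at but not the -0.79 by 1448566_at. Heph lies on the X chromosome (chrX:96455436-96574485 in GRCm38.p6). The female knockout replicates 2 and 3 gave 1695 and 2488, on either side of the mean of wild-type arrays, and among the 6 arrays lacking Xist signal the log2 fold change was -0.52 (adjusted p = 0.106). Heph was called as lower with array weights (-0.43, adjusted p = 0.0385).

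**Figure D2:**
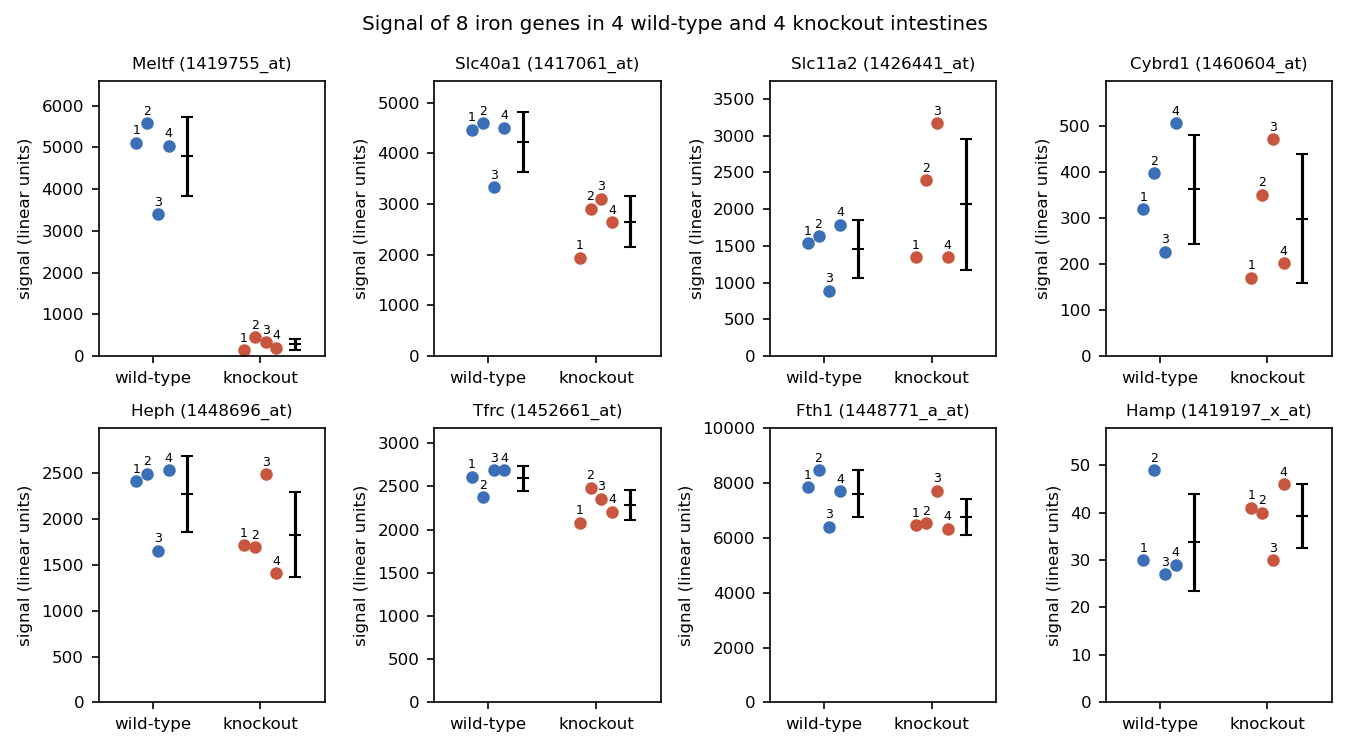
Signal on a linear scale (y axis) of the brightest probe set of each of the 8 genes in wild-type and knockout arrays. Points are arrays, numbered by replicate, and bars are mean ± SD of 4. The groups are apart for Meltf and Slc40a1 and overlap for the other 6 genes.

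Apical uptake genes were not called, and their spread among knockouts was wide. Slc11a2 has 4 probe sets, of which 1426441_at gave 1538, 1631, 891 and 1788 in wild-type and 1347, 2391, 3168 and 1345 in knockout arrays. Knockout replicates 2 and 3 lay above every wild-type array while replicates 1 and 4 lay within the wild-type range. The log2 fold change of this probe set was 0.44 (95% confidence interval -0.17 to 1.05, limma adjusted p = 0.362). Probe sets 1441709_at and 1452078_a_at also had knockout replicates 2 and 3 above every wild-type array, with log2 fold changes of 0.55 and 0.51 (limma adjusted p = 0.294 and 0.207). The dim probe set 1417584_at differed in pattern, at 65, 58, 47 and 60 in wild-type and 112, 70, 92 and 89 in knockout arrays. Its groups did not overlap, with a log2 fold change of 0.53 ± 0.16 (limma adjusted p = 0.0535), and it was called as higher without knockout replicate 2 (adjusted p = 0.0404), with 60% of probe sets left out as dim (0.0423) and with no intensity trend (0.0496).

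The ferrireductase gene Cybrd1 showed the same split among the knockouts. Probe set 1460604_at gave 319, 397, 227 and 506 in wild-type and 170, 351, 472 and 202 in knockout arrays. Knockout replicates 1 and 4 lay below every wild-type array, and replicates 2 and 3 lay within the wild-type range. The log2 fold change was -0.32 (95% confidence interval -0.98 to 0.34, limma adjusted p = 0.558), and the dimmer 1425040_at, at 88 to 158 in wild-type and 82 to 195 in knockout arrays, had 0.04 (limma adjusted p = 0.945). These intervals include both a fall and a rise.

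The knockout arrays that were high for Slc11a2 and Cybrd1 were the 2 female ones. This order was not particular to these genes. Replicates 2 and 3 were also the highest knockouts for Meltf (447 and 333, against 137 and 200 in replicates 1 and 4) and by both Slc40a1 probe sets. They were not the highest for Heph or for Slc11a2 by 1417584_at. The same 2 arrays also stood apart in an ileal marker. Fabp6, the ileal bile acid binding protein, gave 4286 and 4505 in knockout replicates 2 and 3, 321 and 131 in knockout replicates 1 and 4, and 13 to 460 in wild-type arrays. The summed signal of 4 ileal markers was 5763 and 6352 in knockout replicates 2 and 3 and 1131 to 2576 in the other 6 arrays, most of the former being Fabp6. The other ileal markers did not rise above the wild-type range in these 2 arrays. Slc51a gave 1239 and 1480 there and 1141 to 1626 in wild-type arrays. In knockout replicates 1 and 4 it gave 1047 and 836, below every wild-type array, so replicates 2 and 3 were its highest knockouts. Slc51b gave 237 and 361 in replicates 2 and 3, 240 and 153 in replicates 1 and 4, and 267 to 533 in wild-type arrays. Slc10a2 gave at most 13 in any array. The summed signal of 3 proximal markers was 648, 958, 820 and 751 in knockout replicates 1 to 4 and 597 to 813 in wild-type arrays. Knockout replicates 2 and 3 thus lay above every wild-type array for the proximal sum too, replicate 3 only narrowly (820 against 813). Sex and the Fabp6 signal cannot be told apart in these 2 arrays, and their part in the spread of Slc11a2 and Cybrd1 was not tested. Among the 6 arrays lacking Xist signal the log2 fold changes of Slc11a2 were -0.07 by 1426441_at and -0.06 by 1441709_at, opposite in sign to those with all 8 arrays. They were 0.11 by 1452078_a_at and 0.66 by 1417584_at (limma adjusted p = 0.893, 0.913, 0.82 and 0.0653 in the order given). For Cybrd1, 1460604_at and 1425040_at gave -0.85 and -0.42 (limma adjusted p = 0.0812 and 0.303).

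**Figure D3:**
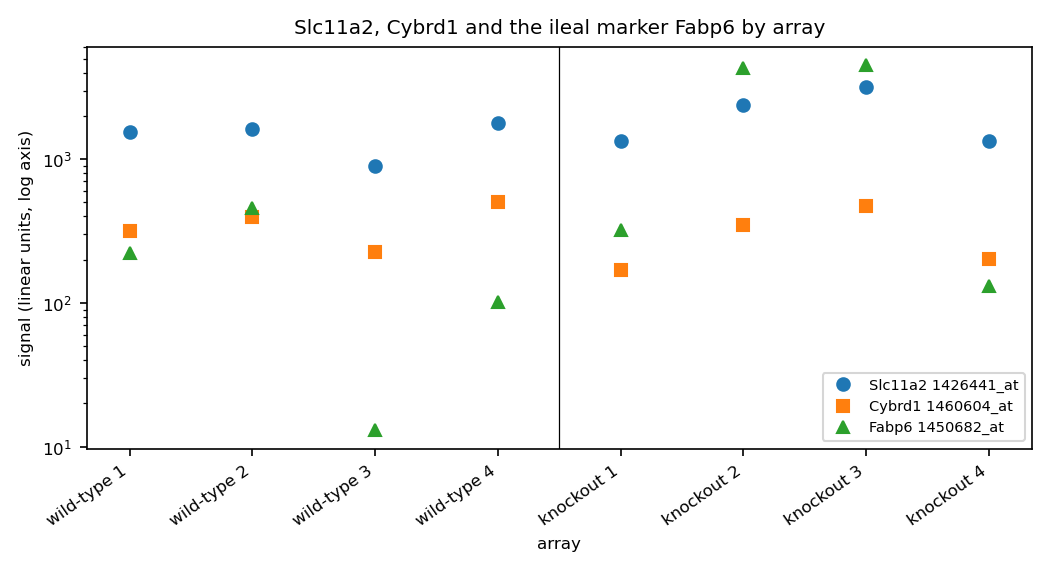
Signal (y axis, log scale) of Slc11a2 (circles), Cybrd1 (squares) and Fabp6 (triangles) in each of the 8 arrays (x axis). Knockout replicates 2 and 3 are the highest knockouts for all 3 genes, at 2391 and 3168 for Slc11a2 and 4286 and 4505 for Fabp6, and wild-type replicate 3 is the lowest wild-type for all 3.

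The arrays departed from their group means in a shared way for several iron genes. Relative to the wild-type mean on the log2 scale, wild-type replicate 3 was lower by all 9 probe sets of Slc40a1, Slc11a2, Cybrd1 and Heph, and by Meltf (-0.47), with deviations from -0.66 to -0.22. Knockout replicate 1 was lowest for Meltf (-0.82) and low for Slc40a1 (-0.42 and -0.47) and Cybrd1 (-0.52 and -0.65). The 6 Tfrc probe sets departed from this among the wild-types, where replicate 3 was the highest in each of them. Among the knockouts replicate 1 was the lowest in each, with deviations from -0.36 to -0.13.

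**Figure D4:**
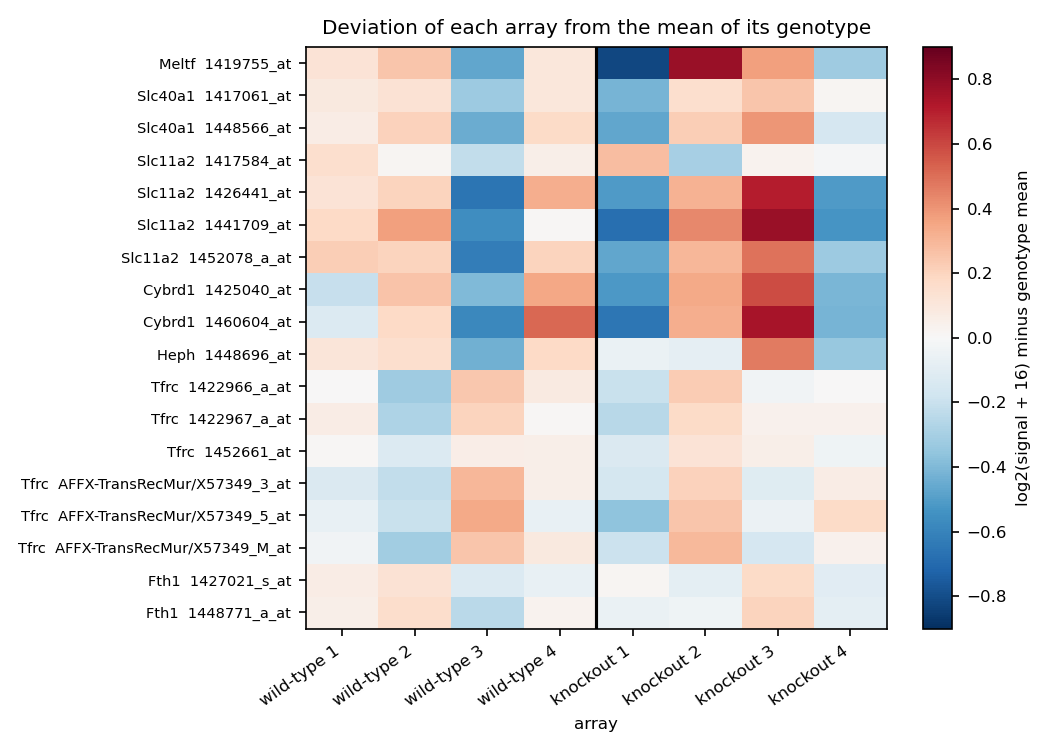
Deviation of each array (x axis) from the mean of its genotype on the log2(signal + 16) scale, as colour, for 18 probe sets of 7 iron genes (y axis), Hamp being too dim to show. Wild-type replicate 3 is low for Meltf, Slc40a1, Slc11a2, Cybrd1, Heph and Fth1 and high for Tfrc. Knockout replicate 3 is high for Slc40a1, Cybrd1, Heph and 3 of the 4 Slc11a2 probe sets.

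Transferrin receptor mRNA was lower by 2 of its 3 tested probe sets. Probe set 1422967_a_at gave 197, 152, 217 and 189 in wild-type and 87, 122, 110 and 110 in knockout arrays. All knockouts lay below all wild-types, at 56.8% of the wild-type mean, and the log2 fold change was -0.73 ± 0.14 (limma adjusted p = 0.00545). Probe set 1422966_a_at gave 666, 531, 788 and 707 in wild-type and 411, 559, 463 and 472 in knockout arrays, with knockout replicate 2 above wild-type replicate 2. Its log2 fold change was -0.48 ± 0.13 (limma adjusted p = 0.0367), and the call was lost when wild-type replicate 1, 3 or 4 was left out, or any knockout but replicate 2 (adjusted p = 0.0629 to 0.111). The brightest probe set, 1452661_at, gave 2612, 2377, 2690 and 2684 in wild-type and 2081, 2483, 2356 and 2207 in knockout arrays, a log2 fold change of -0.18 (95% confidence interval -0.36 to -0.0041, limma adjusted p = 0.185).

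The array also carries 3 control probe sets made to the 3' part, the middle and the 5' part of Tfrc. The 3' probe set gave 392.3, 367, 535.2 and 445.3 in wild-type and 250, 328, 259.5 and 296.7 in knockout arrays. The 5' probe set gave 104.8 to 160.7 and 62.3 to 103.3, and the middle probe set 101.3 to 156.5 and 67.8 to 100.8. In each the groups did not overlap (exact permutation p = 0.0286, two-sided, for each of the 3), though for the 5' and middle probe sets only narrowly. The log2 differences were -0.58, -0.47 and -0.60 for the 3', 5' and middle probe sets. With control probe sets kept in the limma fit, the 3' and middle ones were called (adjusted p = 0.0153 and 0.0311) and the 5' one was not (0.109). The ratio of the 3' to the 5' probe set was 1.68 on the log2 scale in wild-type and 1.57 in knockout arrays (exact permutation p = 0.2). The transcripts that each probe set reports were not analysed here. After adjustment for the 3' to 5' ratio of actin and Gapdh, 0 of the 3 tested Tfrc probe sets were called, 1422967_a_at having -0.46 (limma adjusted p = 0.244) and 1422966_a_at -0.22 (0.564).

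Developing red cells hold much transferrin receptor, and the erythroid markers that could be measured were dim but uneven among the knockouts. Of 15 markers listed, 10 had a probe set of 1 symbol. Hbb-b1, Hbb-bs and Hbb-bt had none, so the sum does not measure the amount of red cell RNA. The summed signal of the 10 was 144 to 293 in wild-type and 140 to 818 in knockout arrays, highest in knockout replicate 4. The globin genes Hba-a1, Hba-a2, Hbb-y and Hbb-bh1 gave at most 119 in any array by their brightest probe set of 1 symbol. Alas2, of the haem list and named after its values were seen, was not called. It gave 167 to 312 in wild-type and 570, 244, 221 and 362 in knockout replicates 1 to 4. Slc4a1, the red cell anion exchanger, gave 177 and 393 in knockout replicates 1 and 4, 62 and 17 in replicates 2 and 3, and 16 to 73 in wild-type arrays. Rhag, of the Rh complex, gave 24 and 73 in knockout replicates 1 and 4 and 1 to 16 in the other 6 arrays. In the limma fit 0 of the 3 erythroid markers tested (Slc4a1, Klf1 and Hba-a2) were called, and their part in the Tfrc result was not tested.

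Meltf and Tfrc lie on the same chromosome, 709875 bases apart, with Tfrc at chr16:32608896-32632794. Of 19 protein-coding genes between them in the RefSeq table, 14 were tested, 1 was called as lower and 0 as higher, where 15.1% of all 12838 genes tested were called. The gene called was 0610012G03Rik, which fell by 0.64 on the log2 scale (limma adjusted p = 0.001). Dlg1, on the other side of Meltf, had a log2 fold change of 0.02 (limma adjusted p = 0.941).

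Ferritin heavy chain mRNA was bright and was not called. Fth1 (1448771_a_at) gave 7860, 8489, 6415 and 7719 in wild-type and 6458, 6540, 7735 and 6341 in knockout arrays, a log2 fold change of -0.17 (95% confidence interval -0.38 to 0.04, limma adjusted p = 0.304). The groups overlapped, with knockout replicate 3 above wild-type replicate 4 and wild-type replicate 3 among the knockouts. Probe set 1427021_s_at had -0.13 (95% confidence interval -0.31 to 0.06, limma adjusted p = 0.387). Both intervals leave out a fall as large as the -0.68 of Slc40a1. Ferritin genes have many processed copies in the genome, and signal from near-identical sequences cannot be told apart here.

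Hepcidin mRNA was close to background. Hamp (1419196_at) gave 55, 20, 21 and 24 in wild-type and 30, 29, 15 and 56 in knockout arrays, and 1419197_x_at gave 27 to 49 and 30 to 46. The groups overlapped in both, with log2 fold changes of 0.07 and 0.16 (limma adjusted p = 0.909 and 0.657). At signals this low no difference was detectable, and signal of the similar gene Hamp2 cannot be told apart by the probe set with the x suffix. Hepatocyte markers were uneven: their summed signal was 683 to 894 in wild-type arrays, 253 and 267 in knockout replicates 2 and 3, 1361 in knockout replicate 1 and 9225 in knockout replicate 4. Alb gave 4646 in knockout replicate 4, where the 2 Hamp probe sets gave 56 and 46, the highest of the knockouts.

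Beyond the members, genes that control iron or move it within cells were mostly not called. Of 19 tested genes of a list of 28, 2 were higher and 2 lower (21.1%, against 15.1% of all genes), with a median log2 fold change of 0.02 against 0.03 for all genes. Slc39a8, which encodes a zinc, manganese and iron importer, gave 1336, 1561, 967 and 1350 in wild-type and 87, 227, 180 and 200 in knockout arrays. All its knockouts lay far below the wild-types, and it fell by 2.85 ± 0.24 on the log2 scale (limma adjusted p = 1.24e-05), with its other probe set at -2.76. The metalloreductase gene Steap2 gave 156 to 181 in wild-type and 30 to 57 in knockout arrays and fell by 1.74 ± 0.16 (limma adjusted p = 2.89e-05), with all 4 of its tested probe sets called lower. Slc25a37, the mitochondrial iron importer mitoferrin-1, rose from 223, 290, 331 and 204 to 748, 699, 648 and 699 (log2 fold change 1.38 ± 0.14, limma adjusted p = 6.02e-05).

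Epas1, which encodes the hypoxia-inducible factor HIF-2 alpha, a regulator of intestinal iron absorption genes, was called as higher with all 8 arrays. It gave 332 to 566 in wild-type and 598 to 1009 in knockout arrays (log2 fold change 0.70 ± 0.18, limma adjusted p = 0.0276), and its other tested probe set, at 0.60, was not called. It lost the call when wild-type replicate 1 was left out, or any knockout but replicate 4 (adjusted p = 0.0537 to 0.076), among the 6 arrays lacking Xist signal (0.187) and after adjustment for the 3' to 5' ratio (0.48). The iron regulatory protein genes Aco1 (0.19, adjusted p = 0.105) and Ireb2 (0.20, adjusted p = 0.297), Fbxl5 (0.36, adjusted p = 0.0841), Ncoa4 (-0.24, adjusted p = 0.376) and the iron chaperone genes Pcbp1 and Pcbp2 (0.01 and 0.01), named after their values were seen, were not called in the limma fit.

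Haem genes went both ways. Of 19 tested genes of haem synthesis, transport and breakdown, 3 were higher and 4 lower (36.8%, against 15.1% of all genes), with a median log2 fold change of 0.09 against 0.03 for all genes. Hmox1, the haem oxygenase that frees iron from haem, gave 134, 179, 129 and 155 in wild-type and 48, 49, 76 and 48 in knockout arrays, with no overlap, and fell by 1.22 ± 0.17 (limma adjusted p = 0.000432). Hmox1 is also a macrophage gene, so the macrophage sums given with ferroportin bear on it, and their part was not tested. Blvrb, a biliverdin reductase gene, was lower (-0.84 ± 0.19, limma adjusted p = 0.0125). Alas1, the first enzyme of haem synthesis, went from 333 to 422 in wild-type to 540 to 795 in knockout arrays and rose by 0.76 ± 0.13 (limma adjusted p = 0.00184), while its other tested probe set, at 0.78, was not called. Pgrmc1 (0.43 ± 0.10, limma adjusted p = 0.0128) was called as higher. Fech, the enzyme that puts iron into haem, was called as lower (-0.36 ± 0.09, limma adjusted p = 0.0217) by 1 of its 3 tested probe sets.

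Several haem calls depended on the arrays used. Fech lost the call when replicate 1 or 2 of either genotype was left out (adjusted p = 0.0617 to 0.0816). Among the 6 arrays lacking Xist signal, Blvrb (-0.57, adjusted p = 0.066), Pgrmc1 (0.36, adjusted p = 0.0575) and Fech (-0.29, adjusted p = 0.147) were not called. After adjustment for the 3' to 5' ratio Alas1 was not called (0.57, adjusted p = 0.118), and neither were Blvrb, Pgrmc1 and Fech (adjusted p = 0.119, 0.2 and 0.294). The other 2 called genes were Slc46a1, a folate transporter also described as a haem carrier (1.61 ± 0.41, limma adjusted p = 0.024), and Urod (-0.30, limma adjusted p = 0.0392). Each was called by 1 of 2 tested probe sets, the other having 1.62 for Slc46a1 and 0.04 for Urod. Both lost the call among the 6 arrays lacking Xist signal (1.26 and -0.29, adjusted p = 0.165 and 0.15) and after adjustment for the 3' to 5' ratio (0.75 and -0.37, adjusted p = 0.499 and 0.156). Slc46a1 lost the call when wild-type replicate 1 was left out, or any knockout but replicate 4 (adjusted p = 0.0517 to 0.0635), and Urod was called when wild-type replicate 3 was left out and lost the call without any other array (0.0539 to 0.117). These 2 genes were named after their values were seen.

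Among 16 tested genes of iron-sulphur cluster assembly, 4 were lower and 0 higher (25%, against 15.1% of all genes), with a median log2 fold change of -0.0021 against 0.03 for all genes. Fdx1, a mitochondrial ferredoxin gene, fell from 793 ± 119 to 411 ± 35.3 (SD, n = 4, log2 fold change -0.91 ± 0.12, limma adjusted p = 0.000377), and Hscb, a cochaperone gene, fell from 307 ± 25.7 to 183 ± 15.1 (-0.70 ± 0.11, limma adjusted p = 0.00145). Isca1 (-0.32) and the cysteine desulphurase gene Nfs1 (-0.36) were called as lower with all 8 arrays (limma adjusted p = 0.0277 and 0.0342), Isca1 by 2 of 2 tested probe sets and Nfs1 by 1 of 2. Isca1 lost the call when wild-type replicate 1, 2 or 4 was left out, or knockout 1 or 2 (adjusted p = 0.0619 to 0.102), and Nfs1 when any of those or knockout 3 was (0.0547 to 0.106).

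**Figure D5:**
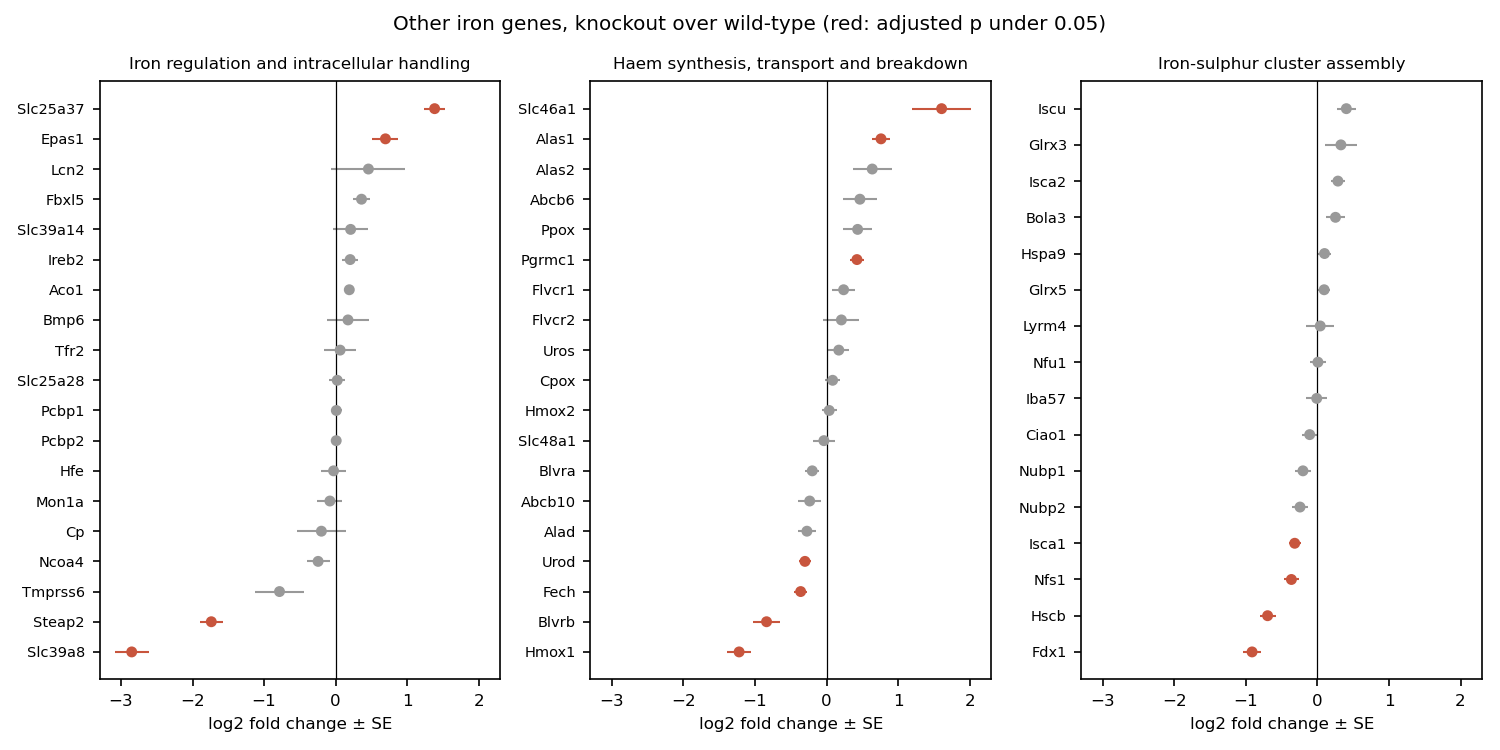
Log2 fold change, knockout over wild-type (x axis, lines are standard errors), of the tested genes of 3 lists (panels), each gene by its brightest tested probe set. Red marks the 4, 7 and 4 genes called, from Slc39a8 at -2.85 to Slc46a1 at 1.61.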

How the data were processed

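The deposited table gives a signal intensity per probe set and array on a linear scale, and the authors' scaling is already in it, since the mean after trimming 2% at each end was about 150.05 on every array. The signal algorithm is not given in the sources used here. No value column lacked a sample. Signals were used as log2(signal + 16) with no further normalization. The 64 control probe sets and the 40% of the others with the lowest mean were left out. On the remaining 27022, genotype was tested as the only term of a linear model (limma 3.58.1 under R 4.3.3, with an intensity trend in eBayes), two-sided, with Benjamini-Hochberg adjustment over all of them. A gene outside the members was represented by its brightest tested probe set. Single values were compared with exact two-sided permutation tests over arrays. Named genes were all members and up to 5 called genes of each of 3 other iron lists by smallest p, with others said to be chosen later. Members and lists were chosen with earlier results of these data known. Alternatives are given in the closing section. All 10 symbols matched the RefSeq gene table of GRCm38.p6. Precision is limited by the number of arrays. The fit and the motif search were tested on simulated or constructed data.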

Additional observations from a re-analysis of the deposited data

Results flagged for a closer look

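In each group of 4 arrays, an array was marked when its gap to the nearest other, over the group's whole range on the log2(signal + 16) scale, passed Dixon's critical value at 95% for 4 samples. This marked 6 of 40 groups of the iron probe sets, and chance marks about 1 in 20. Wild-type replicate 3 was the low array in 3 of them: Slc40a1 by 1417061_at (3326, gap 0.916 of the range), Slc11a2 by 1452078_a_at (321, gap 0.966) and Heph (1656, gap 0.885). Knockout replicate 3 was the high array for Fth1 by 1448771_a_at (7735, gap 0.845). For Hamp, wild-type replicate 1 was high by 1419196_at (55, gap 0.845) and wild-type replicate 2 by 1419197_x_at (49, gap 0.837), both at signals near background.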

How the results depend on the processing

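Across 22 alternatives to the processing, Meltf, Slc39a8, Steap2, Slc25a37, Hmox1, Fdx1 and Hscb were called in the same direction in all. Of the counts of iron probe sets (5 lower, 0 higher), the lower count was 3 with the replicate block or no intensity trend, 2 in an unmoderated linear model and 1 after adjustment for the 3' to 5' ratio, and the higher count was 1 with 60% of probe sets left out or no intensity trend. Leaving out 1 array gave 3 to 5 lower and 0 to 1 higher. For iron regulation the higher count (2) was 1 with the replicate block, no intensity trend, the Xist or 3' to 5' covariate, the 6 arrays without Xist signal or the mean of all probe sets (1 to 3 leaving out 1 array, lower 2 to 3). For haem, higher (3) was 1 with the replicate block, no intensity trend or the unmoderated model and 0 after the 3' to 5' adjustment, lower (4) was 1 with the replicate block, the Xist or 3' to 5' covariate or the 6 arrays and 2 with no intensity trend or the mean of probe sets (2 to 3 and 2 to 4 leaving out 1 array). For iron-sulphur genes, lower (4) was 2 with the replicate block, no intensity trend, the Xist or 3' to 5' covariate or the 6 arrays (2 to 4 leaving out 1 array), and higher (0) was 2 without wild-type replicate 3 and knockout replicate 4 together (0 to 1 leaving out 1 array). Over all 27022 probe sets, calls as higher and lower (1427 and 1811) were 751 and 1164 with the replicate block, 2631 and 2584 with array weights, 755 and 1269 with Xist as a covariate, 471 and 919 after the 3' to 5' adjustment, 807 and 1338 among the 6 arrays and 883 and 1322 in the unmoderated model, and 876 to 2085 and 1296 to 2161 leaving out 1 array. Among single probe sets, 603 comparisons with an alternative stayed on the same side of the threshold (differences that were not called could change sign, as for Slc11a2), 98 calls were lost, 4 were gained and 0 called differences changed direction by limma. Slc40a1 by 1417061_at was lost in the unmoderated model (adjusted p = 0.0877), and by 1448566_at with the replicate block (0.0622). The cause of these moves was not tested. Deviations of same-numbered arrays of the 2 genotypes correlated at -0.274 to -0.0111. Arrays of unlike number were not compared, so whether the numbers pair the arrays was not settled.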

Other observations

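The 4 probe sets that the annotation gives to Ftl1 or Trf together with other genes cannot be assigned to either gene. The probe set listed for both Trf and Srprb, 1425546_a_at, gave 841, 870, 994 and 1005 in wild-type and 2705, 1798, 1651 and 3101 in knockout arrays, with no overlap (log2 fold change 1.26 ± 0.18, limma adjusted p = 0.000614). Knockout replicates 1 and 4, its highest arrays, were also the knockouts with the highest hepatocyte marker sums (1361 and 9225). In knockout replicates 2 and 3 the hepatocyte sums were 253 and 267, below the 683 to 894 of wild-type arrays. The probe set still gave 1798 and 1651 there, above every wild-type array. The part of hepatocytes in the signal was not tested. The 2 probe sets listed for Ftl1 and its copy Ftl1-ps2 alone gave log2 fold changes of -0.41 (1418364_a_at, limma adjusted p = 0.0171) and -0.26 (1422302_s_at, limma adjusted p = 0.0573). The dimmer 1422301_at, listed for these and for Mir692 genes too, gave 360 to 437 in wild-type and 236 to 319 in knockout arrays, with no overlap (log2 fold change -0.50, limma adjusted p = 0.0213).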
